A study of Papio anubis and Macaca mulatta with 6 samples.

Results

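KIT and KITLG were the 2 genes examined, of 34178 genes listed for the baboon and 21356 listed for the rhesus monkey, and they were chosen by symbol alone. KIT encodes the receptor tyrosine kinase c-KIT and KITLG encodes its ligand, also called stem cell factor. Their transcripts were counted in germ cells and somatic cells of the immature testis, in each species alone, because the annotations of the 2 species differ. The 6 single-cell libraries comprised 3 from baboons and 3 from rhesus monkeys, with 2 animals in each species. Baboon 1 gave libraries 1A and 1B, baboon 2 gave 1 library, rhesus 1 gave 1 library and rhesus 2 gave libraries 2A and 2B. All animals were untreated males whose testes were collected at necropsy and dissociated with enzymes in 2 steps, the first of which was followed by washes that remove part of the interstitial cells. The cells were then loaded without selection, so the shares of cell types in these libraries are not those of the tissue. The series text gave ages of 15 and 20 months to the baboons, and newborn and 26 months to the rhesus monkeys, whereas the study's text gave these pairs of ages to the opposite species. No age could therefore be given to an animal here. Animals of 1 species differed in age and in library preparation, baboon 2 being the only library of the later kit version, and these differences cannot be told apart from differences between the animals.

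In the testis, KIT is best known in the germline. Migrating primordial germ cells depend on it, spermatogonial stem cells carry little of it, and spermatogonia that start to differentiate carry more. Sertoli cells are the classical source of the ligand, which is made as a membrane-bound form and as a form from which a soluble factor is readily cut off. Outside the germline, KIT is a defining receptor of mast cells and is also found in some Leydig cells and some endothelial cells, while endothelial and stromal cells are further known sources of the ligand.

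In the baboon genome (build Panubis1.0) KIT lies on chromosome 3 from 98801963 to 98885293 and KITLG on chromosome 9 from 82863338 to 82952274. In the rhesus genome (build Mmul_10) KIT lies on the minus strand of chromosome 5 from 78894911 to 78984337, and KITLG on the minus strand of chromosome 11 from 88164234 to 88252267. Both genes have coding stretches that are present in some RefSeq transcripts and absent from others, and these stretches set the forms of ligand and receptor apart. They are shown because the counts below cannot separate those forms. In KITLG an alternative exon of 84 bases, which holds the main cleavage site of the ligand, is present in 1 of 2 rhesus transcripts (chr11:88185610-88185693, minus strand). In KIT a stretch of 12 bases that lengthens the part of the receptor outside the membrane is present in 3 of 6 rhesus transcripts (chr5:78909596-78909607, minus strand). Each is given 5′ to 3′ with flanking coding bases, and the capitals mark the alternative stretch.
KITLG exon: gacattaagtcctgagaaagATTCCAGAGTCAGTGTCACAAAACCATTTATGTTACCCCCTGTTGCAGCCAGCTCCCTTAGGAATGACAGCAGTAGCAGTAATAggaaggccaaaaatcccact
KIT stretch: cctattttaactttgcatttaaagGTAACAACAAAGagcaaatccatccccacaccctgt
The KITLG exon ends 4649 bases before the transcript end and the KIT stretch 3542 bases before it. The reads of these libraries come from the 3′ end of transcripts, so a count of either gene sums all of its forms.

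The libraries held 16875294 to 49803025 UMIs (unique molecular identifiers, each 1 counted transcript molecule), of which 57.7% to 87.3% were in cells. Cells numbered 23039 in the baboons and 26472 in the rhesus monkeys, with a median of 1445 to 2743.5 UMIs per cell. A cell was placed in a class (germ, Sertoli, Leydig, stroma, contractile, endothelial, macrophage or lymphoid) when its UMIs of that class's marker genes stood clearly above what the free RNA of its library would give. Neither KIT nor KITLG was a marker, so the rule left both free to be measured. Lists for mast, glial and erythroid cells placed at most 7 cells of a kind in an animal, which got no values. The rule placed 6237 baboon cells (27.1%) and 12150 rhesus cells (45.9%). Clusters were named by the most frequent class of their own placed cells. Of the placed cells, 98.3% and 97.5% lay in clusters of the matching class, a match that follows in part from this naming. It does not bear on the cells that were not placed. Sertoli cells were placed unevenly, with 1576 cells in baboon 1 and 86 in baboon 2, although the Sertoli clusters held 12804 and 3377 cells, so Sertoli values are also given over clusters. Libraries 1A and 1B shared 65 cell barcodes (1.17% of the smaller library), and the rhesus pairs shared 109 to 124 (at most 1.65%). Levels are given as UMIs per 1000000 UMIs of the class (CPM) with an exact Poisson 95% interval, and an interval of this kind covers counting error only.

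Both members were scarce. KIT had 68 UMIs in 54 of all baboon cells and 243 UMIs in 181 of all rhesus cells, and KITLG had 1148 UMIs in 974 baboon cells and 69 UMIs in 69 rhesus cells. Over all cells of a library, KIT stood at 1.15 CPM (26 UMIs) in baboon 1A, 0.979 CPM (13 UMIs) in baboon 1B and 0.667 CPM (29 UMIs) in baboon 2. It stood at 3.18 CPM (70 UMIs) in rhesus 1, 6.42 CPM (90 UMIs) in rhesus 2A and 6.45 CPM (83 UMIs) in rhesus 2B. Both libraries of rhesus 2 were thus above rhesus 1, with intervals (5.16 to 7.89 and 5.14 to 8.0 CPM) clear of that of rhesus 1 (2.48 to 4.02 CPM). KITLG stood at 12.5 CPM (283 UMIs), 12.4 CPM (165 UMIs) and 16.1 CPM (700 UMIs) in baboon 1A, 1B and 2. In the rhesus libraries KITLG stood at 2.82 CPM (62 UMIs) in rhesus 1, 0.214 CPM (3 UMIs) in rhesus 2A and 0.311 CPM (4 UMIs) in rhesus 2B. The rhesus animals were therefore ordered oppositely for the receptor and the ligand, and libraries of 1 animal lay within each other's intervals for both genes. With 1 sample of cells from each of 2 animals, these differences between animals were not tested beyond counting error, and levels of cell mixtures move with the shares of cell types as well as with the level in each type.

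**Figure D1:**
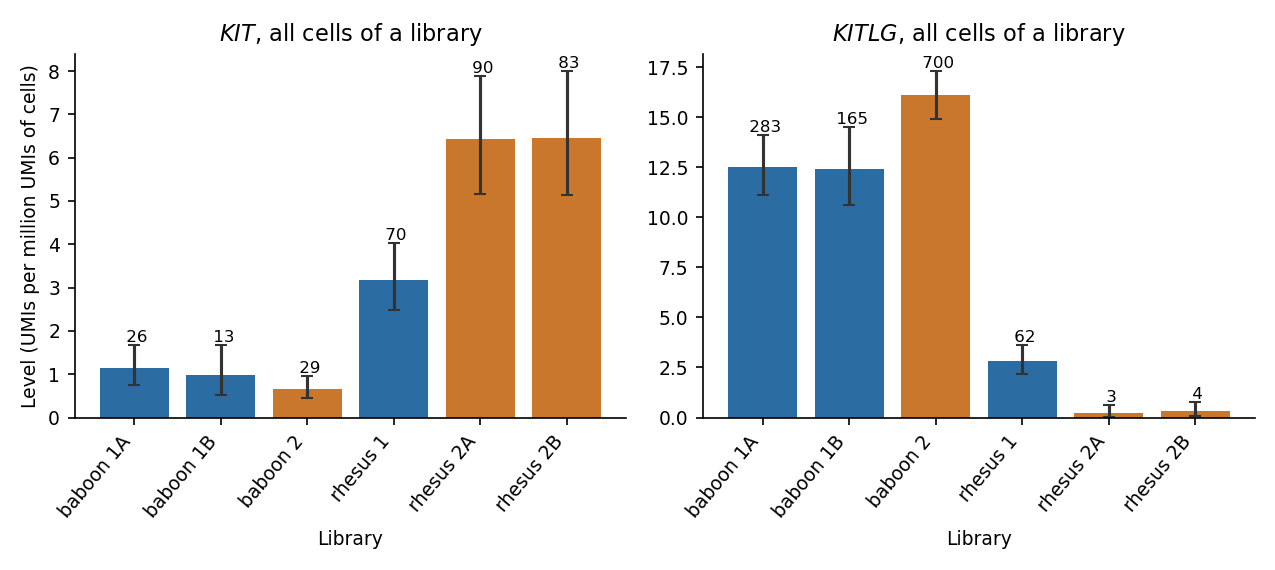
Level of KIT (left) and KITLG (right) over all cells of each library, in UMIs per 1000000 UMIs of cells, with exact Poisson 95% intervals as bars and the UMI count above each bar. Blue marks animal 1 and orange animal 2 of a species, and levels are not comparable between species because the annotations differ. KIT was higher in rhesus 2A and 2B (6.42 and 6.45 CPM) than in rhesus 1 (3.18 CPM), and KITLG lower (0.214 and 0.311 against 2.82 CPM).

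KIT was carried by germ cells and endothelial cells in both species and was at or near 0 in Sertoli cells. In the germ class of baboon 1 it had 10 UMIs in 9 of 88 cells, a level of 10.4 CPM (interval 4.98 to 19.1). In the germ class of baboon 2 it had 10 UMIs in 9 of 90 cells, a level of 8.73 CPM (4.19 to 16.1). The baboon germ level was thus 9.56 ± 1.17 CPM (SD, n = 2 animals) and nearly the same in both animals. Library 1A gave 9 of the 10 UMIs of baboon 1 (14.1 CPM) and library 1B gave 1 (3.1 CPM). In the rhesus monkeys the germ class held 8 KIT UMIs in 8 of 165 cells of rhesus 1, which is 9.21 CPM (3.98 to 18.1). It held 8 KIT UMIs in 7 of 30 cells of rhesus 2, which is 18.3 CPM (7.92 to 36.1). The rhesus germ level was 13.8 ± 6.45 CPM (SD, n = 2), and the intervals of the animals overlapped. Over the germ clusters, which take in more cells, KIT stood at 8.57 CPM (13 UMIs) in rhesus 1 and 38.2 CPM (21 UMIs) in rhesus 2. One germ-cluster cell of rhesus 2 that the marker rule did not place held 7 of those 21 UMIs.

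In Sertoli cells, the somatic neighbours of the germline, KIT had 1 UMI in 1576 cells of baboon 1 (0.172 CPM), 0 UMIs in 86 cells of baboon 2 (which allows up to 4.33 CPM), 1 UMI in 874 cells of rhesus 1 (0.3 CPM) and 0 UMIs in 1898 cells of rhesus 2 (up to 0.699 CPM). The germ level of KIT was 60.3 times the Sertoli level in baboon 1 (95% exact interval 8.58 to 2620) and 30.7 times in rhesus 1 (4.12 to 1360). In the Sertoli clusters KIT stood at 0.162 CPM in baboon 1 and 0.0338 CPM in baboon 2. The KIT level of barcodes without a cell of the same libraries was 0 to 16.6 CPM in the 6 libraries from 0 to 5 UMIs each, and the part of free RNA in the germ counts was not tested. Germ cells were the deepest cells, with medians of 11727, 11940, 3514 and 14319.5 UMIs in baboon 1, baboon 2, rhesus 1 and rhesus 2, against 2766.5, 4657, 2739.5 and 1986 UMIs in Sertoli cells. The share of germ cells with a KIT UMI was 10.2% and 10.0% in the baboons and 4.85% and 23.3% in the rhesus monkeys. After each cell was thinned to 1000 UMIs it was 2.33% (2 of 86 cells), 1.14% (1 of 88), 0.662% (1 of 151) and 0% (0 of 26, which leaves an upper interval bound of 13.2%). In Sertoli cells, which should lack KIT, the thinned share was 0.0649% (1 of 1542 cells) in baboon 1 and 0% in the other animals (0 of 86, 858 and 1728 cells). At this depth most germ cells would show no KIT UMI at the measured level, so the share of germ cells expressing KIT cannot be read from these counts.

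Baboon KIT, with 46 UMIs in placed cells, lay below the count filter of the test across all genes. Without that filter, edgeR's quasi-likelihood test put the baboon germ class above the mean of the other classes by 3.69 on the log2 scale (SE 1.12, adjusted p = 0.00521), where 21.7% of all 24324 genes tested were called higher in germ cells. The call did not hold with classes from clusters (3.11, adjusted p = 0.0826 in edgeR) or with the other classes pooled (2.18, adjusted p = 0.0688), and held with pooled clusters (3.3, adjusted p = 0.0215). In the rhesus monkey KIT passed the filter and the germ class was 2.85 above the mean of the other classes (SE 1.22, adjusted p = 0.0787 in edgeR), which did not pass the threshold of 0.05. With the animal as a block, since all classes come from the same animals, the value was 2.83 and the adjusted p in edgeR was 0.0488. With classes taken from clusters it was 4.25 (adjusted p = 0.0078), and against the other classes pooled it was 0.61 (adjusted p = 0.506). A class that has no UMI in either animal, such as the macrophages, enters the mean of the other classes at a value set by the fit's prior count, so the size of these log2 values is not firm. The p-values of the fit without the filter, here and for the endothelial cells below, are less firm than those of the filtered fit.

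Within the germ class the cells with a KIT UMI carried the spermatogonial genes that the other germ cells carried. In the baboon, UTF1, a factor of undifferentiated spermatogonia, was found in 17 of 18 KIT cells and in 142 of 160 other germ cells. It stood at 785 and 600 CPM in them. DMRT1, a germline transcription factor, was found in 15 of 18 and 89 of 160, and the pluripotency-associated gene L1TD1 in 14 and 72. PIWIL4, a marker of the least differentiated spermatogonia, stood at 36.7 CPM (12 UMIs) in KIT cells and 102 CPM (182 UMIs) in the others. It was found in 8 of 18 and 69 of 160 cells, which are similar shares. The division gene MKI67 stood at 42.8 CPM (14 UMIs) and 14.0 CPM (25 UMIs). Its UMIs lay in only 3 of 18 KIT cells and in 22 of 160 others, so the higher CPM rests on 3 cells. SOHLH1, a factor of differentiating spermatogonia, stood at 141 and 190 CPM. STRA8, which marks entry into differentiation, had 0 UMIs in KIT cells and 3 in the others. In the rhesus monkey the CPM orders of PIWIL4 and MKI67 were turned. PIWIL4 stood at 13.4 CPM (3 UMIs) in KIT cells and 3.7 CPM (4 UMIs) in the others. MKI67 stood at 8.9 CPM (2 UMIs in 1 cell) and 26.8 CPM (29 UMIs in 11 cells). SOHLH1 was found in 12 of 15 KIT cells and 115 of 180 other germ cells, and stood at 209 and 284 CPM in them. POU5F1, the primordial germ cell factor OCT4, was found in 5 of 15 KIT cells (53.4 CPM, 12 UMIs) and in 5 of 180 others (5.55 CPM, 6 UMIs). The other primordial genes listed were lower in rhesus KIT cells, among them NANOS3 (49.0 and 159 CPM), TFAP2C (4.45 and 29.6 CPM) and L1TD1 (22.3 and 49.0 CPM). These are descriptions of few cells, and germ cells with a KIT UMI were deeper than the others (medians of 14742 and 21348 against 11118 and 10794 UMIs in the baboons, and 9265.5 and 22573 against 3472 and 13465 UMIs in the rhesus monkeys), which raises every count of cells with a gene. Both animals of a species were pooled for these comparisons. Rhesus 2 gave 7 of the 15 rhesus KIT cells but only 23 of the 180 other germ cells. The rhesus differences therefore mix in differences between the animals, and the part of the animal was not tested. No germ state (undifferentiated, differentiating or primordial markers alone) had enough cells in both animals of a species for a test.

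Endothelial cells carried KIT in all 4 animals, at a level that differed widely between the animals of a species. In baboon 1 the endothelial class had 15 KIT UMIs in 11 of 140 cells, which is 25.5 CPM (14.3 to 42.1), 5 of them in 1 cell. In baboon 2 it had 3 UMIs in 3 of 135 cells, which is 4.13 CPM (0.851 to 12.1). These baboon intervals did not overlap, but did without that 1 cell, when the level in baboon 1 was 17.5 CPM (8.37 to 32.1). In rhesus 1 it had 6 UMIs in 6 of 49 cells, which is 28.6 CPM (10.5 to 62.4). In rhesus 2 it had 144 UMIs in 93 of 541 cells, which is 70.7 CPM (59.6 to 83.2), with up to 8 UMIs in a cell and with 68.8 and 72.9 CPM in libraries 2A and 2B. The mean levels were 14.8 ± 15.1 CPM in the baboons and 49.7 ± 29.7 CPM in the rhesus monkeys (SD, n = 2 each). Endothelial cells held 92.9% of the KIT UMIs of placed cells in rhesus 2, 51.7% in baboon 1, 17.6% in baboon 2 and 10.9% in rhesus 1. Their shares of all UMIs of placed cells were 13.8%, 6.17%, 8.16% and 1.68% in the same order.

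In the rhesus monkey the endothelial class was 5.35 above the mean of the other classes on the log2 scale (SE 0.85, adjusted p = 8.72e-04 in edgeR), among 10.1% of all genes tested that were called higher in endothelial cells. That difference was higher in both animals, at 7.18 times the level of all other placed cells in rhesus 1 (95% exact interval 2.51 to 16.8) and 81.6 times in rhesus 2 (44.3 to 167). In the baboon, where KIT lay below the filter, the fit without it gave 4.77 (SE 1.04, adjusted p = 1.27e-04 in edgeR), where 6.52% of genes were called higher. The call held with classes from clusters (4.26, adjusted p = 0.0361 in edgeR) and was lost with the other classes pooled (3.26, adjusted p = 0.0964). The ratio to the other placed cells was 16.3 (7.34 to 36.5) in baboon 1 and 2.41 (0.444 to 8.64) in baboon 2, whose interval takes in 1. The endothelial level against the germ level was 2.46 times in baboon 1 (1.03 to 6.11), 0.472 times in baboon 2 (0.0835 to 1.83), 3.11 times in rhesus 1 (0.89 to 10.2) and 3.86 times in rhesus 2 (1.91 to 9.1). With marker classes the order of these 2 classes was therefore clear of counting error in rhesus 2 and narrowly so in baboon 1, and not in the other animals. In baboon 1 it leaned on the 1 endothelial cell with 5 KIT UMIs. Without that cell the endothelial level was 17.5 CPM (8.37 to 32.1), and its interval overlapped that of germ cells (10.4 CPM, 4.98 to 19.1). Over clusters the order was also clear in rhesus 1, at 3.2 times (1.08 to 8.64). The ratio in rhesus 2 was then 1.76 (1.11 to 2.93). After thinning, KIT was found in 3.12% (4 of 128) and 0% (0 of 125) of baboon endothelial cells and in 0% (0 of 43) and 6.02% (29 of 482) of rhesus endothelial cells. The mast cell list had 0 UMIs in all endothelial cells, with or without KIT, and germ markers made up at most 0.0013% of the UMIs of endothelial cells with KIT. The placing rule asks that other lists stay low, which bears on these shares.

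**Figure D2:**
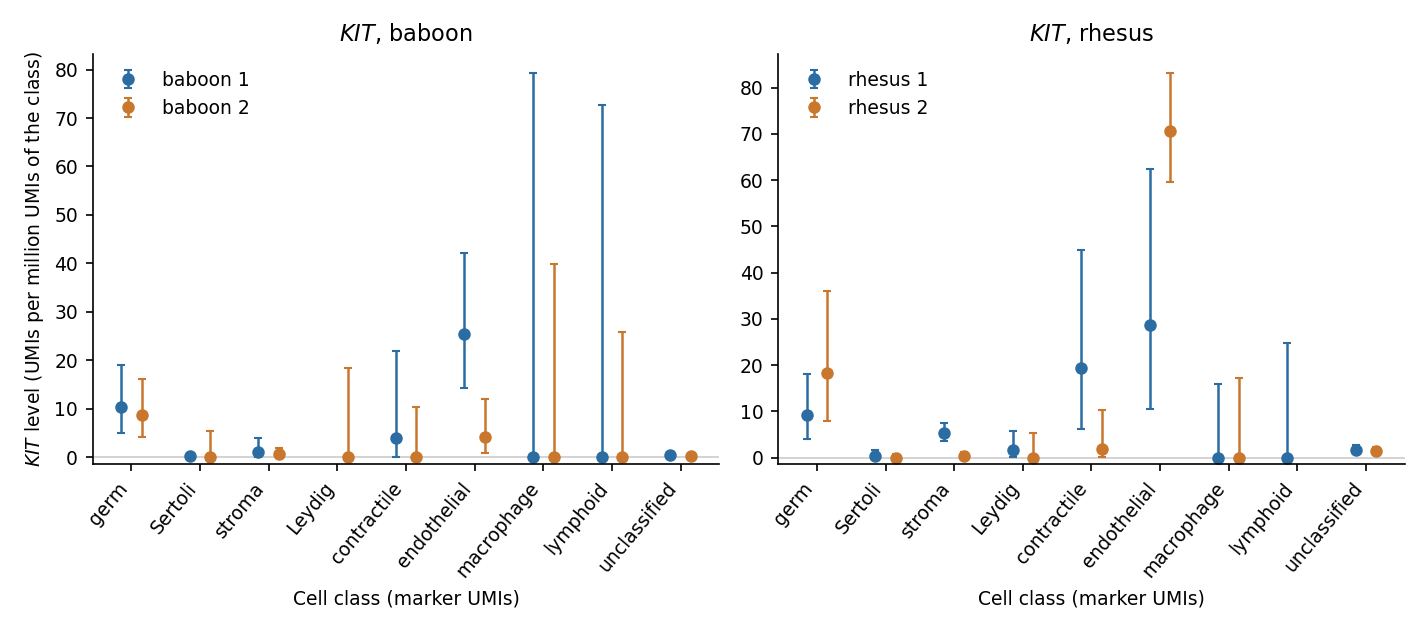
KIT level in each cell class of the baboon (left) and the rhesus monkey (right), in UMIs per 1000000 UMIs of the class, with points for the animals and exact Poisson 95% intervals, on separate vertical scales. Germ cells lay at 8.73 to 18.3 CPM and Sertoli cells at 0 to 0.3 CPM in all 4 animals, and endothelial cells reached 70.7 CPM in rhesus 2. The long bars of the macrophage and lymphoid classes belong to classes with few UMIs and no KIT count.

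Elsewhere KIT was low, except in the stroma and the contractile class of rhesus 1. In the stroma (DCN- and LUM-type mesenchymal cells) it had 33 UMIs in 31 of 3444 cells of rhesus 1, which is 5.33 CPM (3.67 to 7.48). Stroma of rhesus 2 had 2 UMIs in 4018 cells (0.309 CPM), and that of the baboons 2 UMIs in 1249 cells (1.11 CPM) and 4 UMIs in 2544 cells (0.744 CPM). Stroma thus gave 60.0% of the KIT UMIs of placed cells in rhesus 1, where it held 49.6% of all their UMIs. Its KIT level was 1.53 times that of the other placed cells (95% exact interval 0.864 to 2.75), within counting error. The germ level there was only 1.73 times the stromal level (95% exact interval 0.69 to 3.82), against 9.39, 11.7 and 59.4 times in baboon 1, baboon 2 and rhesus 2. The contractile class (myoid and perivascular cells) had 5 UMIs in rhesus 1 (19.3 CPM, 6.26 to 45.0), and 4 of these lay in cells that clustered with the stroma and 1 in a cell that clustered with the endothelium. It had 1 UMI in each of baboon 1 (3.95 CPM) and rhesus 2 (1.83 CPM), and 0 in baboon 2. Leydig cells, a known site of KIT in other settings, had 2 UMIs in 349 cells of rhesus 1 (1.6 CPM) and 0 in 144 cells of rhesus 2 (up to 4.23 CPM). Macrophages and lymphoid cells had 0 KIT UMIs wherever these classes had enough cells for a value. These zeros allow up to 64.5 and 32.3 CPM in macrophages of baboon 1 and 2, and 59.0 and 21.0 CPM in their lymphoid cells. In rhesus 1 they allow up to 13.0 CPM in macrophages and 20.2 CPM in lymphoid cells. In rhesus 2 the macrophage limit was 14.1 CPM. All limits but that of rhesus 2 lay above the germ level of the same animal, so they do not show absence.

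The KIT counts of the rhesus 1 stroma were not spread evenly over it. Stromal cells were divided by 2 gene pairs, DLK1 with STC1 (DLK1 marks fetal-type and progenitor mesenchyme) and IGFBP3 with C7 (genes of fibroblast-like stroma), a split made with earlier results of these data in view. In rhesus 1 KIT stood at 21.9 CPM (6 UMIs, 8.03 to 47.6) in the 157 cells with DLK1 or STC1 alone and 7.42 CPM (19 UMIs, 4.47 to 11.6) in the 1229 cells with both pairs. It stood at 2.53 CPM (8 UMIs, 1.09 to 4.99) in the 1915 cells with IGFBP3 or C7 alone. The level was highest in the first of these groups and lowest in the last, and the intervals of those 2 groups did not overlap. In both baboons KIT had 0 UMIs in cells with IGFBP3 or C7 alone (up to 2.38 and 0.901 CPM), and all 2 and 4 stromal UMIs lay in cells with both pairs. KITLG was higher in cells with IGFBP3 or C7 alone than in cells with both pairs. It stood at 31.8 CPM (22.7 to 43.3) and 36.6 CPM (30.4 to 43.7) in the baboon cells with IGFBP3 or C7 alone, at 11.4 CPM (3.72 to 26.7) and 19.1 CPM (13.5 to 26.3) in those with both pairs, and had 0 UMIs in the 31 and 16 cells with DLK1 or STC1 alone, which allows up to 61.7 and 66.9 CPM and so fixes no order for them. In rhesus 1 KITLG stood at 7.28 CPM (23 UMIs, 4.62 to 10.9) in cells with IGFBP3 or C7 alone and 1.95 CPM (5 UMIs, 0.634 to 4.55) in cells with both pairs, and its 1 UMI in cells with DLK1 or STC1 alone gave 3.65 CPM (0.0923 to 20.3). Cells with both pairs were deeper than cells with IGFBP3 or C7 alone in all 4 animals, and the part of depth in the split was not tested.

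**Figure D3:**
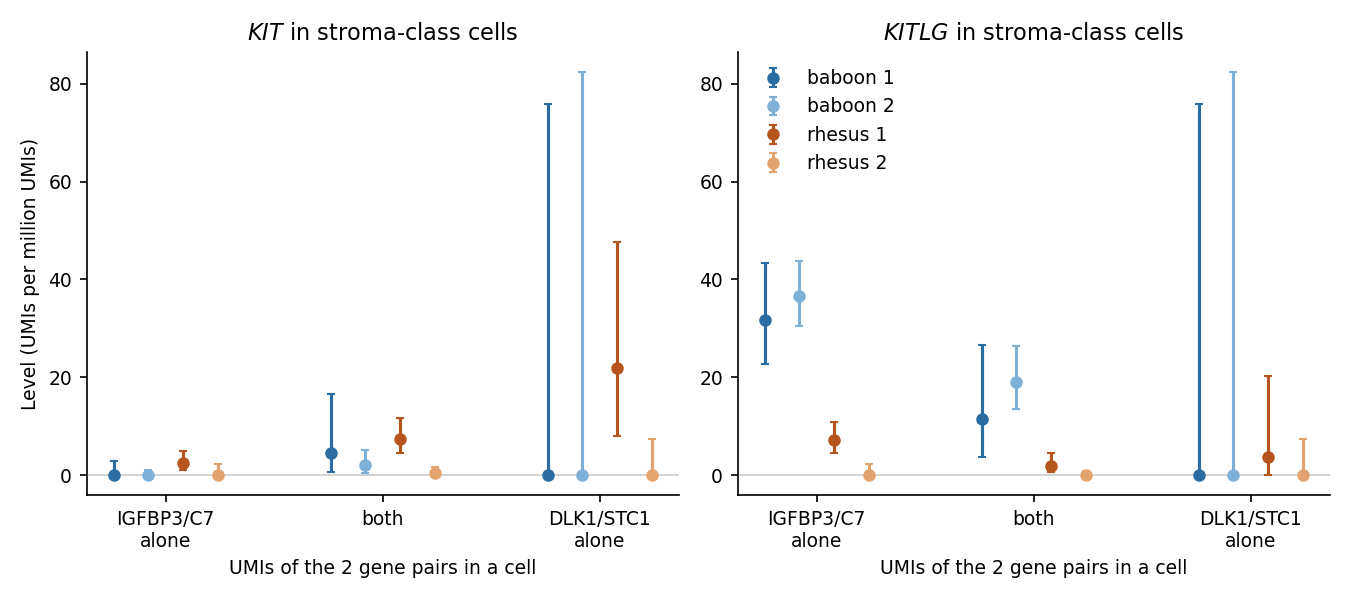
KIT (left) and KITLG (right) in stromal cells divided by whether a cell held UMIs of IGFBP3 or C7 alone, of both gene pairs, or of DLK1 or STC1 alone, in UMIs per 1000000 UMIs with exact Poisson 95% intervals, 1 point for each animal. In baboon 1, baboon 2 and rhesus 1 KITLG was higher in cells with IGFBP3 or C7 alone (31.8, 36.6 and 7.28 CPM) than in cells with both pairs (11.4, 19.1 and 1.95 CPM). Cells with DLK1 or STC1 alone had too few KITLG UMIs to order. KIT was highest in cells with DLK1 or STC1 alone in rhesus 1 (21.9 CPM).

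KITLG in the baboon was highest in endothelial cells, followed by the contractile class and the stroma, and lower in Sertoli and germ cells. The immune classes, with few UMIs, held 0 to 2 KITLG UMIs. In the endothelial class it had 57 UMIs in 36 of 140 cells of baboon 1, which is 97.0 CPM (73.5 to 126), and 86 UMIs in 46 of 135 cells of baboon 2, which is 118 CPM (94.6 to 146), with up to 13 UMIs in a cell. In the stroma it had 45 UMIs in 1249 cells of baboon 1, which is 24.9 CPM (18.2 to 33.3), and 161 UMIs in 2544 cells of baboon 2, which is 29.9 CPM (25.5 to 34.9). In Sertoli cells it had 66 UMIs in 1576 cells of baboon 1, which is 11.4 CPM (8.79 to 14.5), and 4 UMIs in 86 cells of baboon 2, which is 5.77 CPM (1.57 to 14.8). The Sertoli clusters, most of whose cells the marker rule did not place, gave 9.7 CPM (300 UMIs) and 11.2 CPM (331 UMIs). In germ cells it had 8 UMIs in baboon 1 (8.31 CPM, 3.59 to 16.4) and 6 in baboon 2 (5.24 CPM, 1.92 to 11.4). The means were 108 ± 15.0 CPM in endothelial cells, 27.4 ± 3.56 CPM in stroma, 8.57 ± 3.96 CPM in Sertoli cells and 6.78 ± 2.17 CPM in germ cells (SD, n = 2 animals).

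The order of endothelium, stroma and Sertoli cells was the same in both baboons and each step was larger than counting error. Endothelial cells stood at 3.9 times the stromal level in baboon 1 (95% exact interval 2.59 to 5.89) and 3.95 times in baboon 2 (3.0 to 5.16). Stroma stood at 2.19 times (1.47 to 3.25) and 5.19 times (1.99 to 19.3) the Sertoli level, the second from 4 Sertoli UMIs. Over clusters these ratios were 2.19 (1.62 to 2.9) and 2.05 (1.72 to 2.43). The Sertoli level was 1.37 times (0.655 to 3.3) and 1.1 times (0.229 to 4.64) the germ level, within counting error. Over clusters, which hold far more cells, it was 1.4 times (0.702 to 3.28) in baboon 1 and 2.44 times (1.11 to 6.69) in baboon 2. The second was clear of counting error. However, 206 of the 331 KITLG UMIs of the Sertoli clusters of baboon 2 lay in 1 cluster of 857 cells. That cluster also held 16577087 of the 29589232 UMIs of all genes in those clusters. Of its 857 cells 18 were placed, 13 of them as Sertoli cells, so the ratio of 2.44 rests largely on cells without a marker class. The level of KITLG in barcodes without a cell (10.3, 38.8 and 14.4 CPM from 17, 7 and 4 UMIs in libraries 1A, 1B and 2) lay near or above that of the Sertoli cells. The part of free RNA in the Sertoli and germ counts was not tested. After thinning to 1000 UMIs, KITLG was found in 9.38% and 7.2% of endothelial cells, 2.42% and 3.57% of stromal cells, 0.973% and 1.16% of Sertoli cells, and 0% of 86 and 88 germ cells. Without thinning these shares were 25.7% and 34.1%, 3.36% and 5.94%, 3.81% and 4.65%, and 6.82% and 6.67%.

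By edgeR's quasi-likelihood test the baboon endothelial class was 4.01 above the mean of the other classes on the log2 scale (SE 0.45, adjusted p = 4.10e-06), among 12.3% of all genes tested that were called higher there. The stroma was 1.75 above it (SE 0.64, adjusted p = 0.0814 in edgeR), which did not pass the threshold, and with the animal as a block it was 1.76 with an adjusted p of 0.0163 in edgeR. The Sertoli class was not called against the mean of the other classes in this fit, at -0.32 (adjusted p = 1.0 in edgeR). Its SE of 3.09 is not usable, so this value fixes no direction. The lymphoid class, with 0 KITLG UMIs in both animals, enters that mean at a value set by the prior count. Against the pooled UMIs of the other classes, a comparison added after the data were seen, KITLG fell by 1.81 in Sertoli cells (SE 0.43, adjusted p = 0.0157 in edgeR), where 17.0% of genes were called lower. It was lower in both animals, at 0.326 times (95% exact interval 0.239 to 0.441) and 0.171 times (0.0462 to 0.442) the level of the other placed cells.

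The contractile class of the baboons was mixed. It had 20 KITLG UMIs in 99 cells of baboon 1, which is 79.0 CPM (48.2 to 122), and 20 UMIs in 66 cells of baboon 2, which is 56.5 CPM (34.5 to 87.3), and was 3.1 above the mean of the other classes (SE 0.57, adjusted p = 0.00143 in edgeR, among 6.74% of genes called higher). Of these 40 UMIs, 25 lay in 8 cells that clustered with the endothelium, whose median of 10375 UMIs over all 9 such cells was far above that of the class. Contractile-class cells in contractile clusters stood at 37.8 CPM (7 UMIs) and 34.6 CPM (7 UMIs). With classes taken from clusters the difference was 1.1 (adjusted p = 0.237 in edgeR), and against the other classes pooled 1.42 (adjusted p = 0.411), so the call did not hold. Leydig cells of baboon 2 had 3 KITLG UMIs (14.9 CPM, 3.08 to 43.6), those of baboon 1 being too few (4 cells) for a value, macrophages had 0 and 2 UMIs, and lymphoid cells had 0 in both animals.

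In the rhesus monkey KITLG had few UMIs in every class, and only 7 in all cells of rhesus 2. The stroma held 29 UMIs in 3444 cells of rhesus 1, which is 4.68 CPM (3.14 to 6.72), and 0 UMIs in 4018 cells of rhesus 2, which allows up to 0.463 CPM. The endothelial class held 4 UMIs in each animal, which is 19.1 CPM (5.2 to 48.9) in the 49 cells of rhesus 1 and 1.96 CPM (0.535 to 5.03) in the 541 cells of rhesus 2. Sertoli cells held 1 UMI in each animal (0.3 and 0.233 CPM). Germ cells held 1 UMI in rhesus 1 (1.15 CPM) and 0 in rhesus 2, and contractile cells 0 in both. Within rhesus 1 the endothelium stood at 4.08 times the stroma (95% exact interval 1.04 to 11.6, and 3.58 times with an interval of 0.936 to 9.83 over clusters) and the stroma at 15.6 times the Sertoli cells (2.59 to 638, from 1 Sertoli UMI). KITLG lay below the filter of the test in this species, and p-values are less firm in the fit without the filter. Without it, edgeR's test gave 4.13 for the endothelium (adjusted p = 0.0397), 2.49 for the stroma (adjusted p = 0.304) and -1.12 for the Sertoli cells (adjusted p = 1.0), with 7 UMIs in all cells of rhesus 2 behind the second animal. The endothelial call was lost with the other classes pooled (2.0, adjusted p = 0.522 in edgeR) and with pooled clusters (1.84, adjusted p = 0.581). In the RefSeq transcripts of the rhesus monkey the coding part of KITLG ends before the last exon, which is 4394 bases long. That of KIT ends in the last exon. The study's text names an Ensembl reference for its counts, so these exon ends need not be those used in counting. A 3′ count depends on where the annotation used ends a transcript, and how far this set the rhesus KITLG counts was not tested.

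**Figure D4:**
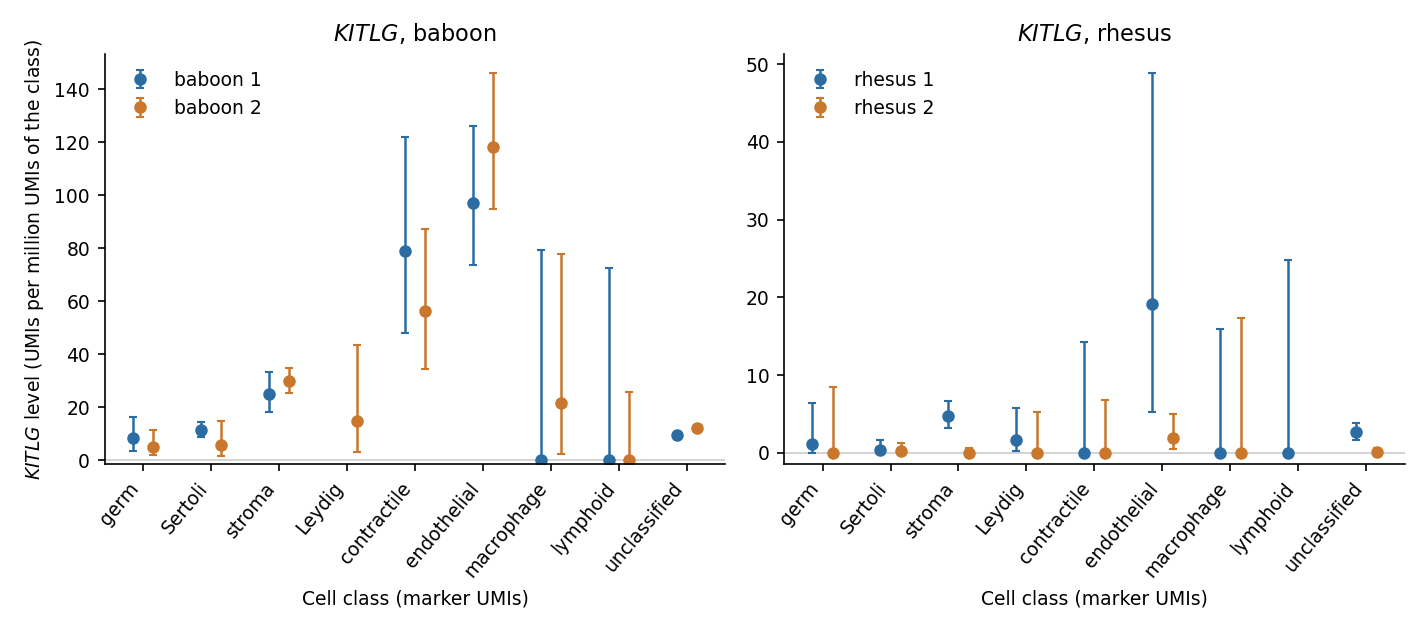
KITLG level in each cell class of the baboon (left) and the rhesus monkey (right), in UMIs per 1000000 UMIs of the class, with points for the animals and exact Poisson 95% intervals, on separate vertical scales. Endothelial cells were highest among the placed classes of both baboons (97.0 and 118 CPM) and Sertoli cells lay at 11.4 and 5.77 CPM. In rhesus 2 no class was above 1.96 CPM.

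Among endothelial cells, receptor and ligand counts were compared with short gene lists for vessel types, chosen with earlier results of these data known. In cells with a UMI of the tip-cell list (ESM1, APLN, ANGPT2 and PGF, genes of sprouting endothelium), KIT stood at 60.7 CPM (30.3 to 109) in baboon 1 and at 9.84 CPM (2.68 to 25.2) in the cells without. The corresponding levels were 130 CPM (96.0 to 173) and 57.6 CPM (46.6 to 70.3) in rhesus 2, whose annotation listed 3 of the 4 genes. In rhesus 2 the intervals did not overlap. In baboon 1 the separation rested on 1 cell with 5 KIT UMIs, without which the first level was 36.1 CPM (13.2 to 78.5). Baboon 2 (9.54 and 1.93 CPM from 2 and 1 UMIs) and rhesus 1 (18.0 and 32.5 CPM from 1 and 5 UMIs) had too few counts to order. Higher KIT was not particular to the tip-cell list. With the capillary list KIT in rhesus 2 stood at 74.7 CPM (63.0 to 87.9), against 0 UMIs in the 48 cells without (up to 27.8 CPM). With and without the lymphatic list it stood at 80.9 and 55.7 CPM in rhesus 2 and 40.4 and 12.7 CPM in baboon 1, with overlapping intervals. That order was turned in baboon 2 and rhesus 1, from few UMIs. With and without the arterial list KIT in rhesus 2 stood at 62.8 and 75.3 CPM, and with and without the venous list at 61.2 and 80.4 CPM. Both were thus lower with a list UMI, with overlapping intervals. For KITLG, baboon endothelial cells with a UMI of the arterial list stood at 115 CPM (83.9 to 154) and 139 CPM (108 to 176), and those without at 61.0 CPM (31.5 to 107) and 74.0 CPM (43.1 to 118), with overlapping intervals. Higher KITLG was not particular to the arterial list. With and without the capillary list it stood at 99.1 and 60.9 CPM in baboon 1 and 122 and 71.4 CPM in baboon 2. It was higher with each of the other lists in baboon 2, and lower with each of them in baboon 1. These intervals overlapped. Cells with a list UMI were deeper in each case, and the part of depth in these differences was not tested. Receptor and ligand UMIs were found together in 7 baboon cells (3 germ, 3 endothelial and 1 contractile) and in 1 rhesus cell (endothelial). Only 54 baboon cells held a KIT UMI and 974 a KITLG UMI, against 181 and 69 rhesus cells. At this scarcity few shared cells can be found, so the counts do not show whether receptor and ligand are separated.

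Genes with the most similar pattern over classes and animals were ranked by Pearson correlation of log2(CPM + 1) over 14 sums of class and animal. For baboon KITLG, over 13124 genes with at least 50 UMIs, these were CPNE2 and SEMA6B (r = 0.98 each) and FZD4, EEF2K and SNED1 (r = 0.97 each). For rhesus KIT, over 11427 genes, they were EEPD1 (r = 0.96), ROBO3 (0.95), DPP4 (0.91), CAMK2A (0.9) and SPNS2 (0.9). All 14 sums come from 2 animals and the ranking picks the highest of many values, so they are descriptions. Baboon KIT (46 UMIs) and rhesus KITLG (42 UMIs) had too few UMIs in placed cells to rank.

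Transcripts were counted for 83 genes of lists drawn up around KIT, of which the baboon annotation listed 82 and the rhesus annotation 79. Besides signalling genes they take in 10 regulators of KIT transcription and 7 relatives of the receptor and of the ligand. The set is therefore wider than the KIT pathway. In germ cells, 19 of 72 tested baboon genes were higher (26.4%, against 28.6% of all genes) and 8 lower (11.1%, against 11.8%), and 14 of 55 rhesus genes were higher (25.5%, against 26.1%) and 14 lower (25.5%, against 15.7%). Their median log2 difference in baboon germ cells was 0.22, against 0.37 over all genes, and that in rhesus germ cells was -0.25, against 0.12. The pathway as a whole was thus called higher about as often as other genes in germ cells of both species. In Sertoli cells, 4 of 72 baboon genes were higher (5.56%, against 8.08%) and 10 lower (13.9%, against 5.27%), and 5 of 55 rhesus genes were higher (9.09%, against 10.2%) and 14 lower (25.5%, against 7.27%). The median there was -0.3 for the baboon and -0.39 for the rhesus monkey, against 0.06 over all genes in either species.

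Of the genes known to regulate KIT transcription, 5 of 8 tested baboon genes and 2 of 4 tested rhesus genes rose in germ cells, where 28.6% and 26.1% of all genes did, and none fell. The list was chosen with earlier results of these data known and includes germline factors such as SOHLH1, SOHLH2, STRA8 and DMRT1. Its share of risers therefore cannot be read as a result about regulators of KIT. SOHLH1, an activator of Kit in spermatogonia, stood at 154 and 206 CPM in the germ cells of baboon 1 and 2 and at 0.351 and 0.812 CPM in the other placed cells (log2 9.8, SE 0.58, adjusted p = 4.36e-08 in edgeR). In rhesus germ cells it stood at 340 and 135 CPM, against 3.83 and 0.911 CPM (log2 6.37, SE 0.65, adjusted p = 8.88e-06). Its partner SOHLH2 rose by 5.8 in the baboon, TCFL5 by 2.91, and DMRT1, which controls the entry of germ cells into meiosis, rose by 2.06 in baboon and 6.84 in rhesus germ cells. The fifth baboon gene, looked up after its value was seen, was ZBTB16, a repressor of Kit in undifferentiated spermatogonia (log2 1.34, adjusted p = 0.00622 in edgeR), with 106 and 76.9 CPM in germ cells against 36.7 and 166 CPM in the pooled other cells. In baboon Sertoli cells it fell by 6.78 (0.517 and 1.44 CPM, against 111 and 168 CPM). MITF, the melanocyte and mast cell factor, rose by 1.51 in rhesus Sertoli cells.

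Among adaptors and docking proteins, SH2B2, an adaptor of receptor tyrosine kinases that binds KIT, was the largest riser in germ cells of both species. It stood at 103 and 70.8 CPM in baboon germ cells, against 3.16 and 5.82 CPM in the other placed cells (log2 5.06, SE 0.45, adjusted p = 3.54e-07 in edgeR). In rhesus germ cells it stood at 167 and 91.7 CPM, against 3.57 and 4.84 CPM (log2 4.65, SE 0.37, adjusted p = 1.31e-06). GRB10 and DOK2 rose in the baboon as well (4.19 and 2.65), while SHC1, which links receptors to RAS, fell in both species (-1.74 and -2.03). Of the lipid kinase branch, PIK3R1, a regulatory subunit of PI3-kinase, fell in germ cells of both species (-2.16 and -2.47), PIK3CB rose in the baboon (1.23), PIK3CD rose in the rhesus monkey (1.77) and the transcription factor FOXO3 fell there (-1.99).

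The RAS and MAP kinase branch had 6 of 14 tested baboon genes and 6 of 13 rhesus genes higher in germ cells (28.6% and 26.1% of all genes), with none lower among the baboon genes (11.8% of all) and 3 among the rhesus genes (15.7%). HRAS rose in both species (2.61 and 2.43), with 168 and 258 CPM in baboon germ cells against 30.4 and 48.5 CPM in the other placed cells. BRAF rose in the rhesus monkey (3.91). SOS2, NRAS and SPRED1 fell there (-2.31, -1.35 and -1.19). Of the SRC and JAK-STAT branch 8 genes were tested in each species. None of these was higher in germ cells (28.6% and 26.1% of all genes), and 2 were lower in each species (11.8% and 15.7% of all genes). STAT3 was lower in both species (-1.24 and -1.01) and JAK2 in the rhesus monkey (-3.18).

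Of the genes listed as negative regulators, 3 of 11 baboon genes and 2 of 8 rhesus genes were higher in germ cells, near the shares of 28.6% and 26.1% over all genes, and 3 and 2 were lower (11.8% and 15.7% of all genes). Whether the listed genes restrain or promote KIT signals in these cells was not tested. The feedback inhibitors SPRY2 (2.89 and 2.1) and SPRY4 (3.66 and 4.05) rose in both species, and CBL, which tags activated KIT for degradation, rose in the baboon (1.73). SOCS3, an inhibitor of JAK-STAT signalling that is also a stress-responsive gene, fell in germ cells of both species (-3.72 and -3.69), as did PTPN11 (-1.86 and -2.28), the phosphatase SHP2. SOCS3 also fell in Sertoli cells, with 1 and 0 UMIs in the baboons against 138 and 349 CPM in their other placed cells, and 11.1 and 14.0 CPM in the rhesus monkeys against 274 and 279 CPM.

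Of the genes whose products cut the ligand from the membrane, ADAM17 rose in rhesus Sertoli cells (53.0 and 52.5 CPM, against 12.3 and 22.9 CPM, log2 1.29, adjusted p = 0.00684 in edgeR). MMP9, a further protease able to release the ligand, rose in germ cells of both species (2.82 and 4.45) and in baboon Sertoli cells (2.74). ADAM10 fell in rhesus germ cells (-1.01). Other Sertoli values were those of MAPK3, the kinase ERK1 (-2.19 for the baboon and -1.61 for the rhesus monkey), the SRC-family kinase LYN (-2.64 and -2.29) and the adaptors SH2B3 (-2.61 and -1.93) and DOK1 (-1.79 and -0.99), which were lower in both species. PIK3R2 was higher in baboon Sertoli cells (1.66) and FYN in rhesus Sertoli cells (1.58), where STAT5A and STAT5B, transducers of KIT signals, were lower (-1.97 and -2.13). Among relatives of the receptor and its ligand, PDGFRB, the receptor of pericytes, was lower in both rhesus contrasts (-2.84 in germ and -2.44 in Sertoli cells), and the ligand FLT3LG was lower in both baboon contrasts (-2.91 and -3.22). CSF1R was called higher in rhesus germ cells (2.22, adjusted p = 0.0494 in edgeR) against the mean of the classes, although its level there (4.6 and 11.5 CPM) was not above that of the pooled other cells (19.2 and 11.4 CPM).

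**Figure D5:**
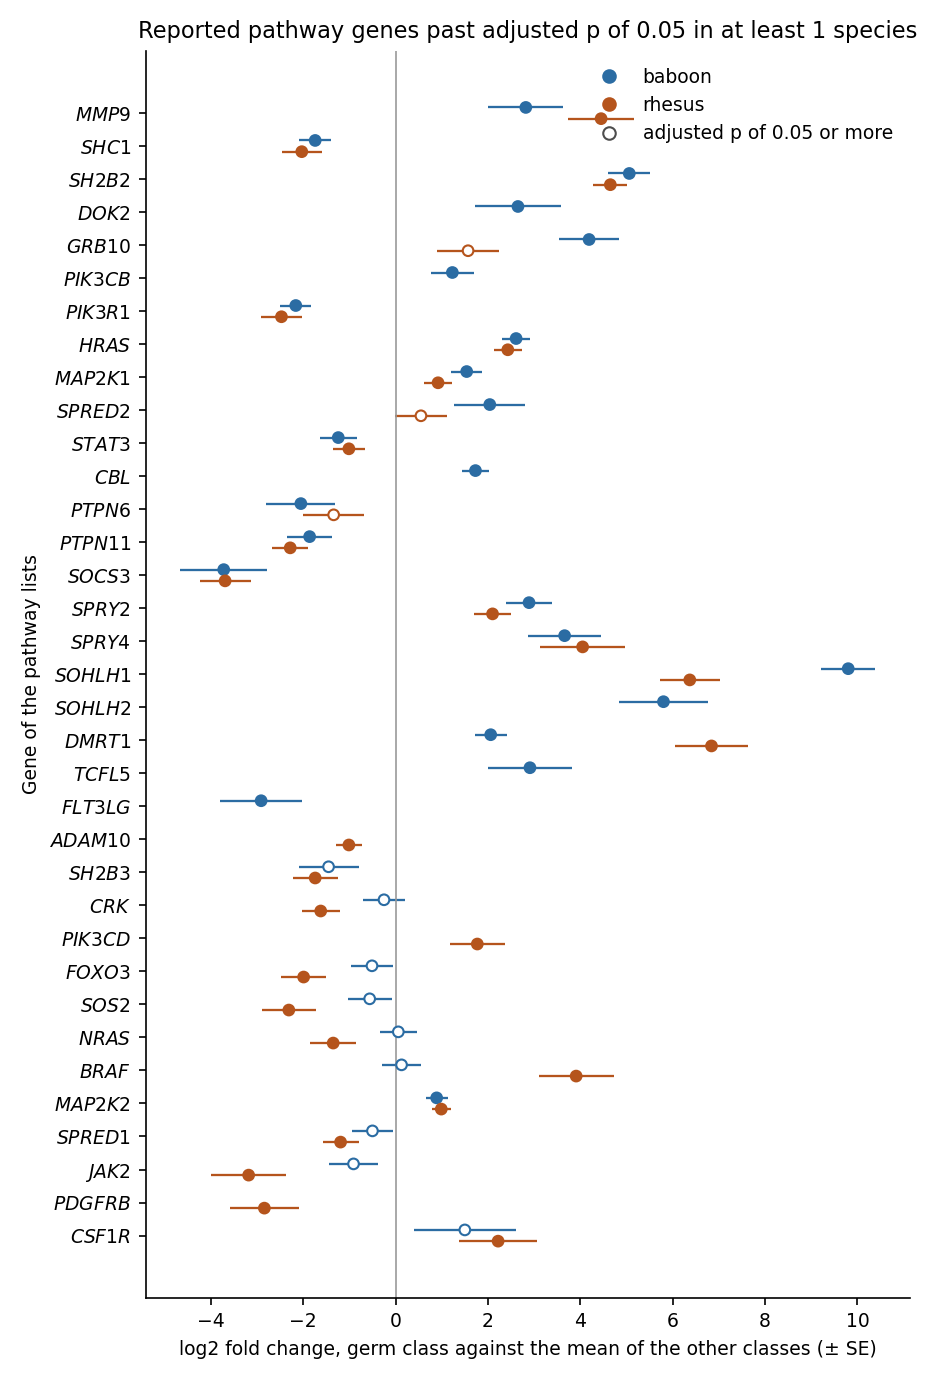
Log2 difference of the germ class from the mean of the other classes, with SE, for reported pathway genes named by rule in at least 1 species, in the baboon (blue) and the rhesus monkey (orange), where filled points had an adjusted p under 0.05 in edgeR and estimates without a usable SE are left out. SOHLH1 (9.8 and 6.37), SH2B2 (5.06 and 4.65) and HRAS (2.61 and 2.43) were higher in both species, and SOCS3, PIK3R1 and PTPN11 lower.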

How the data were processed

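Testis cells were profiled with 10x Genomics 3′ single-cell libraries. The authors deposited UMI count matrices of all barcodes. The submitters' processing notes name Cell Ranger 3.1.0 and Seurat 3.2.3, and the builds Panubis1.0 (baboon) and Mmul_10 (rhesus monkey). All 6 libraries had a matrix of their own, so no column was left unmapped.

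From the deposited counts, cells were called by a UMI cutoff (the 99th percentile of the top 5000 barcodes divided by 10) together with barcodes of at least 500 UMIs whose profile departed from free RNA (adjusted p at most 0.01 over 10000 simulations), with at least 200 genes. A class needed a one-sided Poisson p at most 0.0001 for its markers over free RNA, 2 marker genes, and a p 1000 times below that of the next class. Marked doublets (4.45% to 8.93% of cells of a library) were kept. Thinned values drew 1000 UMIs from each cell. A level of 0 carries the limit that 3 counts would give. Clusters came from 3000 variable genes and 30 components at resolution 1.

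Counts were summed per animal and class with at least 10 cells in both animals. edgeR (quasi-likelihood, TMM, filterByExpr, 1 fit per species) compared each class with the equally weighted mean of the others, with Benjamini-Hochberg adjustment over 11323 baboon and 9684 rhesus genes. Cells were not used as replicates. For edgeR, the SE given is the absolute log2 difference divided by the square root of the test's F value. It can be unusable where a class held 0 counts. Because n is 2 animals, p-values of the main fit measure the spread between these animals. Without the filter, and in the baboon fit with the animal as a block, p-values fell more than the SE accounts for. For baboon KITLG in endothelial cells the SE was 0.45 in the main fit, 0.49 without the filter and 0.4 with the block. Calls that rest on these fits are less firm than their adjusted p-values show. They are those of KIT and rhesus KITLG without the filter, and of baboon stromal KITLG with the block. The cause was not tested. Classes are paired by animal by construction, and deviations of the same animal correlated over genes by 0.0776 to 0.548 in the baboon and 0.132 to 0.498 in the rhesus monkey (21 pairs of classes each). In data simulated from these sums with 200 genes changed by 2 (log2), 75.5% and 79.0% were recovered in the baboon germ and Sertoli contrasts and 71.0% and 80.5% in the rhesus contrasts. False calls numbered 7 to 14 in a contrast. The changed genes were drawn from those past the filter, and the simulation had no animal effect. Every gene had the same preset spread, and apart from the changed genes the classes did not differ. In the measured germ contrasts 28.6% of baboon and 26.1% of rhesus genes were called higher. The simulated recovery and false calls therefore need not hold for the measured data. They do not apply to baboon KIT or rhesus KITLG, which lay below the filter.

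Named genes were KIT and KITLG in every class, the members of each pathway list past an adjusted p of 0.05 (at most 4 per list and direction), and the 5 genes of most similar pattern. Some genes that this rule names are not reported here, though the counts include them. The members and the lists were chosen with earlier results of these data known. Alternatives were other class rules, doublet removal, a depth minimum, DESeq2 size factors and test, no filter, the animal block, and leaving out each library. Tests were run in R 4.3.3 with DESeq2 1.42.0, limma 3.58.1 and edgeR 4.0.16. Python 3.11.15 was used with scanpy 1.11.5, igraph 0.11.9, scipy 1.17.1, pandas 2.3.3, matplotlib 3.10.9 and numpy 2.4.6. RefSeq sequences were read from Mmul_10.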

Additional observations from a re-analysis of the deposited data

Results flagged for a closer look

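A KIT signal above that of every class compared here was found in baboon cells outside those classes. Cells with at least 4 UMIs of the mast cell list (CPA3, MS4A2 and HPGDS, the 3 of 6 listed genes present) numbered 4 in baboon 1 and 9 in baboon 2, a minimum chosen after the counts were seen. The marker rule itself had placed 1 cell of each baboon as a mast cell, without a KIT UMI, and left the KIT-bearing cells of this set unclassified. KIT stood at 1260 CPM (95% Poisson interval 461 to 2740) in those of baboon 1, with 6 UMIs in 3 cells, and at 580 CPM (233 to 1200) in those of baboon 2, with 7 UMIs in 4 cells. These UMIs were 6 of 10 and 7 of 12 KIT UMIs of the unclassified cells of each baboon, and lay in cells that clustered with lymphoid cells in baboon 1 and with macrophages in baboon 2. The cells were shallow, with 510 to 1795 and 543 to 4247 UMIs each, and held 0 KITLG UMIs. No such cell was found in either rhesus monkey, where 4 of the 6 genes of the list were present. KIT is a defining receptor of mast cells, and the identity of these cells was not tested further.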

How the results depend on the processing

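The endothelial calls kept their direction and stayed past the threshold in 14 of 14 alternatives with an adjusted p, with log2 values of 4.59 to 7.71 for rhesus KIT (adjusted p up to 0.00726) and 2.56 to 4.98 for baboon KITLG (up to 0.0129). The rhesus KIT germ difference of 2.85 was past the threshold with classes from clusters (4.25), with no filter (2.79) and with the replicate block, that is the animal (2.83), and not in the other 11 alternatives with a p (adjusted p 0.00258 to 0.506 over all). The baboon KITLG contractile difference of 3.1 was lost with clusters (1.1) and with the other classes pooled (1.42). The stromal difference of 1.75 passed with the replicate block (1.76), and turned to -0.10 with cells called by the UMI cutoff alone. The baboon fit with that cutoff held no lymphoid or macrophage class, so its mean of the other classes spans fewer classes. The Sertoli difference of -0.32 became -1.81 with that cutoff and with the other classes pooled, -1.29 with pooled clusters, all past the threshold, and turned to 1.13 without the library of baboon 2. The block changed no other call of the 6 differences. The p-values of the fits without the filter, and of the baboon fit with the block, are less firm than those of the main fit. Without 1 library each, values ran from 1.92 to 5.09 (rhesus KIT, germ), 5.02 to 7.71 (rhesus KIT, endothelium), -0.54 to 1.13 (baboon KITLG, Sertoli), 3.98 to 4.98 (endothelium), 2.92 to 4.57 (contractile) and 1.74 to 2.70 (stroma). Leaving out the only library of an animal left no residual degrees of freedom, so those values have no test. The baboon KIT level in germ cells was 9.56 CPM, 8.15 with clusters and 5.92 to 11.4 without 1 library, 5.92 being the value without 1A. The baboon endothelial KIT level ran from 12.3 to 25.5 CPM, the last being baboon 1 alone. The rhesus KITLG level in Sertoli cells was 0.266 CPM, 0.329 with at least 3 marker genes, 0.0 at the stricter class p, 0.618 with clusters and 0.15 to 0.388 without 1 library. The rhesus stromal level of 2.34 CPM ran from 0.0 to 2.64, and was 0.0 without rhesus 1. The causes of these changes were not tested. Normalization, test and block do not act on levels, and the germ-state alternatives were not run because too few cells fell into a state. Depth limits most values, since 46 baboon KIT UMIs and 42 rhesus KITLG UMIs in placed cells carry all class levels of those genes.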
